A study of Mus musculus with 37 samples.

Results

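In this comparison mature luminal cells from mice carrying the Y541S substitution in Esr1, the gene of estrogen receptor alpha, were set against the same cells from wild-type (WT) mice, all given estradiol and progesterone together. The members are 6 of the 37 RNA-seq libraries of the study, 3 labelled Y541S E2+P4 and 3 labelled WT E2+P4, chosen by genotype and treatment label. The series covers 3 genotypes (Y541S, D542G and WT) and 4 pellet treatments (E2, P4, E2+P4 and placebo). All mice were raised to 8 weeks of age and ovariectomized, so that the ovarian source of both hormones was removed in every group. They then carried pellets for 8 days, and mature luminal cells were sorted from the dissected mammary glands. E2 is estradiol and P4 is progesterone. Besides the 6 libraries, the 3 libraries each of Y541S placebo, WT placebo, Y541S E2, WT E2 and D542G E2+P4 enter the comparisons with other contexts, and the 3 Y541S P4 and 4 WT P4 libraries give levels only. The labels give neither the zygosity of the mutations nor whether a library came from 1 mouse or from several. The design text calls the libraries of a condition biological replicates. The p-values below rest on the spread within groups, estimated over all 37 libraries of 12 groups unless a fit of fewer is named.

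Estrogen receptor alpha is a transcription factor that estradiol switches on, and the progesterone receptor gene Pgr is one of its best-known targets. In the mammary gland both receptors are found in a subset of luminal cells, which answer the hormones and signal to their neighbours through secreted factors such as amphiregulin, RANKL (Tnfsf11) and Wnt4. Y541S and D542G are the mouse counterparts of ligand-binding domain substitutions that recur in human breast tumours treated with endocrine therapy, where the receptor can act without estradiol.

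The 6 libraries held 34162029 to 44400392 counts in Y541S E2+P4 and 36962747 to 52244504 counts in WT E2+P4. Levels below are in CPM, a gene's counts relative to the library's total (per-million scale) after trimmed-mean scaling of the totals. The 10 most abundant genes took 6.68% to 6.97% of the counts in Y541S libraries and 8.46% to 12.63% in WT libraries, and the scaling factors were 1.018 to 1.085 in Y541S and 0.767 to 0.967 in WT. The first principal component, with 47.8% of the variance, separated the genotypes, with scores of 61.6 to 75.1 in Y541S and -118.8 to -25 in WT. The luminal keratins Krt8, Krt18 and Krt19 were abundant in every library. Krt18 ranged over 4190 to 5150 CPM in Y541S and 4460 to 9230 CPM in WT, while Krt14, a basal keratin, ranged over 20.6 to 48.1 CPM in Y541S and 28.3 to 41.5 CPM in WT.

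WT E2+P4 library 2 stood apart from the other 5 in the summed levels of some gene lists. It had the highest summed level of leukocyte markers, at 100.9 CPM over 16 tested genes, against 17.42 to 36.18 CPM in the Y541S libraries and 16.77 and 19.07 CPM in the other WT libraries. Its 4 globin genes summed to 232.2 CPM, against 8.361 to 45.07 CPM in the Y541S libraries and 19.39 and 30.24 CPM in the other WT libraries. Its 12 mitochondrially encoded genes summed to 10860 CPM, against 3893 to 5727 CPM in Y541S and 3239 and 5459 CPM in the other WT libraries. The part of these transcripts in the differences below was not tested, and counts of changed genes are given with and without that library. By another measure WT library 1 stood apart from its group. Its chi-square per degree of freedom, a measure of how far counts differ, was 164.5 against WT library 2 and 185.8 against WT library 3. Between WT libraries 2 and 3 it was 89.2.

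Of 18426 genes tested, 1111 were higher (6.03%) and 1566 were lower (8.5%) in Y541S E2+P4 than in WT E2+P4, 14.5% in all. A gene is called changed where the adjusted p of edgeR's quasi-likelihood test, corrected over all tested genes by the Benjamini-Hochberg method, is under 0.05. Differences are log2 values, Y541S minus WT, with the standard error (SE) of the fit. The median over all tested genes was 0.002, and the middle 90% lay between -2.2 and 1.96. Among called genes, 454 were higher by 2-fold or more (2.46% of those tested) and 928 were lower by 2-fold or more (5.04%). Without WT library 2 the test called 468 genes higher and 1150 lower, so that 28.9% of the calls were higher in place of 41.5%. Without WT library 1 it called 1445 higher and 1782 lower. Without WT library 3 it called 596 higher and 1019 lower, and without Y541S library 3 it called 713 higher and 1100 lower. The excess of lower over higher calls was present in each of these fits.

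**Figure D1:**
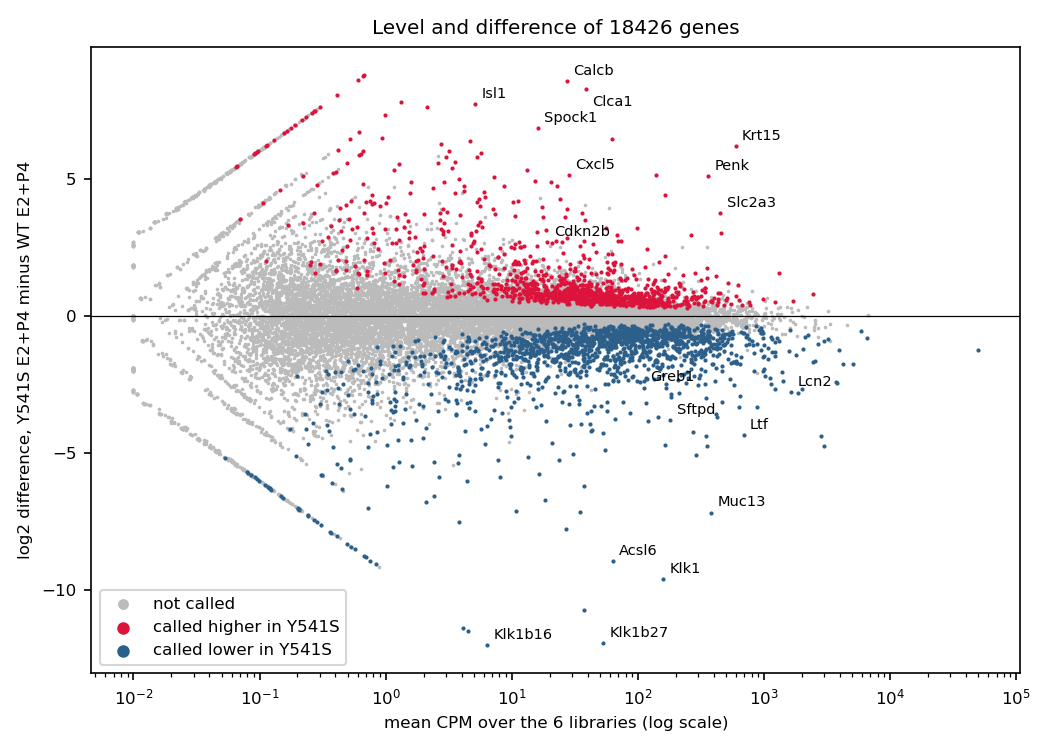
Log2 difference of each tested gene, Y541S E2+P4 minus WT E2+P4, against its mean CPM over the 6 libraries on a log axis, with 1111 genes called higher in red and 1566 called lower in blue. The rays at the left are genes with few counts, and the kallikreins Klk1 and Klk1b27 lie far below the rest at their level.

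The mutated gene itself was lower in the mutant cells. Esr1 (ENSMUSG00000019768, chr10:4611593-5005614, plus strand, GRCm38) had 56.3, 66.8 and 65.1 CPM in Y541S libraries, against 132, 232 and 343 CPM in WT libraries. The groups did not overlap, and the Y541S libraries lay close together while the WT libraries spread widely. The log2 difference was -1.91 ± 0.34 (SE, adjusted p = 0.000287, edgeR). Counts per gene do not separate the mutant from the normal transcript, so they do not check the genotype. In bulk RNA, fewer cells of a type and less RNA per cell cannot be told apart, here or in the results that follow.

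Greb1, a classical estrogen receptor target, had 29.8, 27.4 and 36.1 CPM in Y541S libraries, against 118, 222 and 236 CPM in WT libraries. Every Y541S library was below every WT library, by a log2 difference of -2.62 ± 0.51 (adjusted p = 0.000706, edgeR). Over the list of 28 tested estrogen receptor targets, 6 were lower and 0 were higher, with a median log2 difference of -0.71. The background is 8.5% lower and 6.03% higher over all genes, with a median of 0.002. Stc2, a secreted glycoprotein, averaged 226 ± 8.57 CPM in Y541S and 631 ± 223 CPM in WT (SD, n = 3 each; log2 -1.48, adjusted p = 0.000665, edgeR). Ltf, the iron-binding milk protein lactoferrin, averaged 64.2 ± 7.09 CPM in Y541S and 1320 ± 1070 CPM in WT, where library 2 alone reached 2560 CPM, with a log2 difference of -4.36, and -3.45 without that library. The remaining called members were Ctsd, Rara and Siah2, each lower by less than 1 on the log2 scale. Another annotated gene overlaps 55.7% of the genomic span of Ctsd. The calls of Greb1, Stc2, Ltf and Ctsd were kept when any 1 of the 6 libraries was left out.

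Pgr did not pass the test. It had 119, 117 and 149 CPM in Y541S libraries, against 137, 264 and 307 CPM in WT libraries, and the groups overlapped at the lowest WT library. Its log2 difference was -0.88 ± 0.37 (adjusted p = 0.107, edgeR), and without WT library 1 it was -1.15 with adjusted p = 0.0365. Areg, which encodes amphiregulin, had 402, 406 and 503 CPM in Y541S and 476, 1350 and 1280 CPM in WT (log2 -1.24, adjusted p = 0.0727, edgeR). Areg was called without WT library 1 (adjusted p = 0.022), by DESeq2 (0.0283) and when 3 libraries of other groups with later sample identifiers, 1 of Y541S placebo and 2 of WT P4, were left out of the fit (0.0399).

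**Figure D2:**
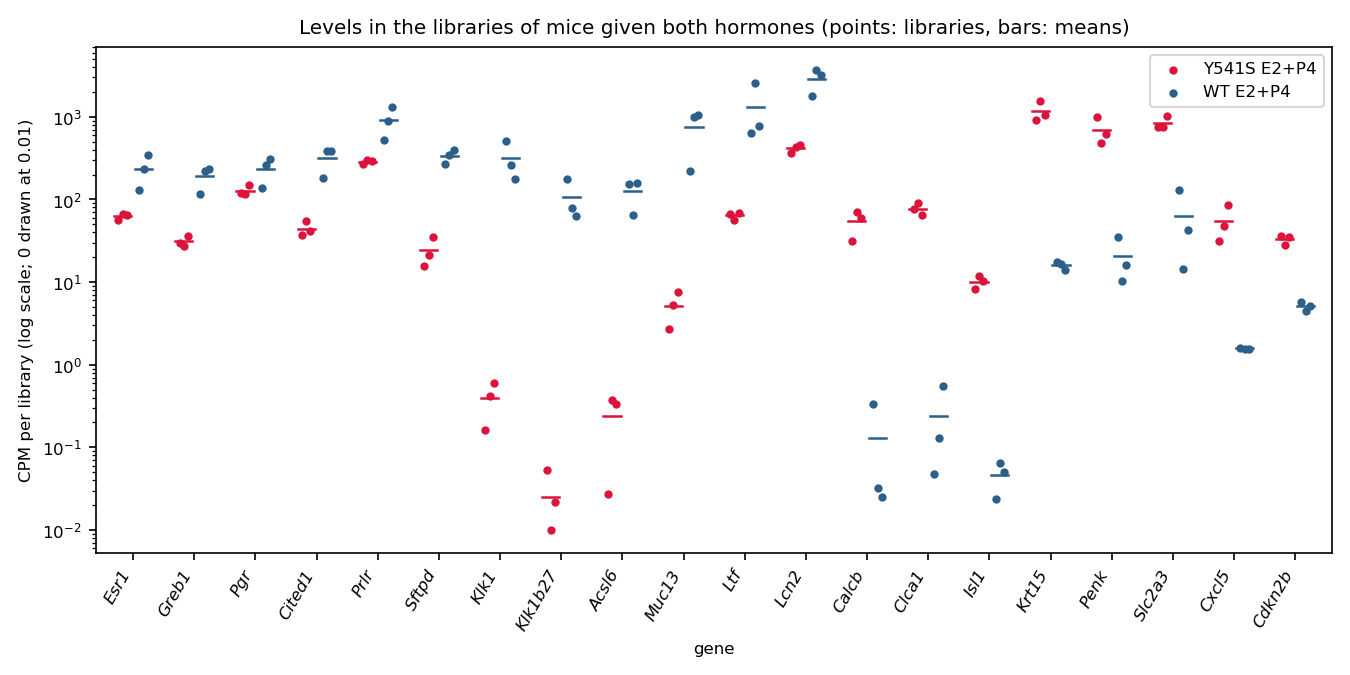
CPM on a log axis of 20 genes in the 3 Y541S E2+P4 libraries (red, left of each pair) and the 3 WT E2+P4 libraries (blue), with bars at the group means and 0 drawn at 0.01. From Esr1 to Lcn2 the Y541S libraries lie below the WT libraries, with an overlap in Pgr, and from Calcb to Cdkn2b they lie above them.

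Several markers of hormone-sensing luminal cells were lower. Of 18 tested, 8 were lower and 0 higher, against 8.5% and 6.03% of all genes, with a median log2 difference of -0.88. The 8 were Esr1, Prlr, Foxa1, Cited1, Tbx3, Prom1, Krt18 and Wnt4. Cited1, a coactivator of estrogen receptor transcription, had 37.2, 54.6 and 41.7 CPM in Y541S libraries, against 183, 392 and 387 CPM in WT libraries. That is a log2 difference of -2.85 ± 0.50 (adjusted p = 0.000211, edgeR), with no overlap. Prlr, the prolactin receptor, had 272, 300 and 291 CPM in Y541S and 526, 879 and 1320 CPM in WT (log2 -1.66, adjusted p = 0.00111, edgeR). Tbx3, a transcription factor of the mammary lineage, averaged 49.4 ± 9.09 CPM in Y541S and 192 ± 69.6 CPM in WT (SD, n = 3 each).

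Foxa1, the pioneer factor that opens chromatin for the estrogen receptor, was lower at 37.4, 34.6 and 39.4 CPM in Y541S, against 79, 65.3 and 211 CPM in WT. Its call rested on the highest WT library, since without WT library 3 the log2 difference was -0.96 in place of -1.68 and the adjusted p was 0.167 (edgeR). Without WT library 3 the count of lower markers was 4 of 18, without WT library 2 it was 6, and without Y541S library 3 it was 5. Gata3, a luminal lineage factor, had 137, 109 and 126 CPM in Y541S and 83, 91.6 and 99.9 CPM in WT, and was not called (log2 0.44, adjusted p = 0.286, edgeR). Other annotated genes together overlap 30% of the genomic span of Gata3, and reads there may belong to Gata3 or to them.

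Coregulators of the receptor were mixed. Of 17 tested, 4 were lower and 1 was higher, against 8.5% and 6.03% of all genes, with a median of -0.18. Ncoa1, a steroid receptor coactivator, averaged 12.1 ± 5.04 CPM in Y541S and 53.9 ± 22.7 CPM in WT (log2 -2.15, adjusted p = 4.51e-05, edgeR). Carm1, an arginine methyltransferase, was lower by 0.71 on the log2 scale. Prmt1, another arginine methyltransferase that acts with the receptor, was higher, at 191 ± 12.9 CPM in Y541S and 97.5 ± 23.2 CPM in WT (SD, n = 3 each). Without WT library 3 the lower coregulators numbered 2.

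Penk encodes the opioid peptide precursor proenkephalin, a secreted signal. It had 995, 484 and 627 CPM in Y541S libraries, against 35.6, 10.2 and 16 CPM in WT libraries, a log2 difference of 5.09 ± 1.02 (adjusted p = 0.00091, edgeR) with no overlap, and 5.74 without WT library 1. Over 25 paracrine ligands and receptors, 2 were higher (Penk and Adamts18) and 3 were lower, against 6.03% and 8.5% of all genes. The median was -0.82. The lower members were Hbegf, an EGF family ligand, Ramp1, a subunit of the receptor for calcitonin gene-related peptide, and Vegfa, the angiogenic growth factor. Ramp1 averaged 86.8 ± 12.6 CPM in Y541S and 377 ± 97 CPM in WT (SD, n = 3 each). Without WT library 2, without WT library 3 or without Y541S library 1, the higher members numbered 1.

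RANKL (Tnfsf11), the progesterone-induced ligand that drives neighbouring cells to divide, had 203, 201 and 215 CPM in Y541S libraries, against 119, 16.6 and 31.3 CPM in WT libraries. The groups did not overlap, but the spread among WT libraries was wide and the difference was not called (log2 1.89 ± 0.97, adjusted p = 0.205, edgeR). Wnt4, another progesterone target, was lower at 28.7, 34.2 and 21.1 CPM in Y541S, against 128, 38.7 and 220 CPM in WT. Its log2 difference was -2.20 (adjusted p = 0.008, edgeR), and the call was lost without WT library 3 (adjusted p = 0.0917) and without Y541S library 3 (adjusted p = 0.0507). Calca, which encodes calcitonin, was not called, with WT library 1 at 346 CPM and WT libraries 2 and 3 at 27.9 and 33.1 CPM. Its log2 difference was 0.43 (adjusted p = 0.766, edgeR) and, without WT library 1, 2.59 (adjusted p = 0.0284).

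Of 18 tested targets of the progesterone and related steroid receptors, 4 were lower and 1 higher, against 8.5% and 6.03% of all genes. Their median was 0.02. Hsd11b2, an enzyme that inactivates glucocorticoids, averaged 9.51 ± 0.377 CPM in Y541S and 105 ± 97.1 CPM in WT, where library 1 was highest at 211 CPM. Its log2 difference of -3.46 became -2.44 without WT library 1, where the call was lost (adjusted p = 0.084, edgeR), and the call was also lost without any 1 of the Y541S libraries (adjusted p of 0.051 to 0.0571). Fkbp5, a chaperone induced by several steroid receptors, was close in both groups, at 298 ± 44.2 CPM in Y541S and 320 ± 43.6 CPM in WT (log2 -0.10 ± 0.46). The lower members numbered 2 without WT library 2, 1 without WT library 3, without Y541S library 1 or without Y541S library 2, and 0 without Y541S library 3.

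Of 19 Wnt pathway genes, 2 were higher and 2 lower, against 6.03% and 8.5% of all genes. Lgr4, a receptor for R-spondins, averaged 24 ± 9.23 CPM in Y541S and 105 ± 36.7 CPM in WT (SD, n = 3 each; log2 -2.13, adjusted p = 3.52e-05, edgeR). Both higher members, Notum and Dkk2, which encode inhibitors of Wnt signalling, stayed under 2 CPM in every library. Neither was called without WT library 2, without WT library 3 or without Y541S library 3, and Notum was not called when any 1 of the 6 libraries was left out. Other annotated genes overlap 71.6% of the genomic span of Notum. Of 13 Notch genes, Hes1 and Hey2, both transcriptional repressors downstream of the receptors, were lower, and 0 were higher. Hes1 averaged 62.2 ± 4.15 CPM in Y541S and 117 ± 38.4 CPM in WT. Hey2 had 1 count in all over the Y541S libraries and 65 over the WT libraries, a WT to Y541S ratio of 73.8 with a 95% exact interval of 12.8 to 2960 that covers counting error only. Its call was lost without Y541S library 1 or 2 (adjusted p of 0.0624 and 0.065, edgeR).

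The prolactin arm was lower in part. Of 11 tested genes of the prolactin receptor and Stat5 pathway, 5 were lower and 0 higher, against 8.5% and 6.03% of all genes. The median was -0.83. Socs3, a feedback inhibitor of cytokine signalling, had 88.9, 64.2 and 87.3 CPM in Y541S, against 202, 497 and 380 CPM in WT (log2 -2.17 ± 0.31, adjusted p = 1.79e-05, edgeR). Every Y541S library was under every WT library. Akt1, Cish and Stat5a were the other lower members besides Prlr. The Stat5a call was lost when any 1 library other than WT library 1 was left out (adjusted p of 0.0517 to 0.162, edgeR), and the Akt1 call with only the compared groups in the fit (0.0594). The count was 3 without WT library 2, without WT library 3 and without each of the Y541S libraries in turn.

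Of 17 milk protein and lipid secretion genes, 4 were lower and 0 higher, against 8.5% and 6.03% of all genes, with a median of -0.40. The lower members numbered 1 without WT library 2, without Y541S library 2 or without Y541S library 3, and 2 without Y541S library 1. Csn1s2b, a casein gene, averaged 0.461 ± 0.201 CPM in Y541S and 11.9 ± 2.14 CPM in WT, and its call was lost without Y541S library 1 or 2 (adjusted p of 0.0557 and 0.065, edgeR). The beta-casein gene Csn2 varied within both groups, with 227, 53.7 and 50.6 CPM in Y541S and 19.5, 0.288 and 1.72 CPM in WT, and it was not called (log2 3.94 ± 1.76, adjusted p = 0.139, edgeR). Of 17 markers of luminal progenitor and alveolar cells, 5 were lower and 0 higher, with a median of -0.61. These were Lcn2, Ltf, Aldh1a3, Folr1 and Plet1, and without WT library 2 there were 3, with the Aldh1a3 call among those lost (adjusted p = 0.0589, edgeR). Elf5, the alveolar transcription factor, and Kit, the progenitor receptor, were not called. Elf5 had 21.7, 13.5 and 13.8 CPM in Y541S and 34.1, 11.8 and 10.4 CPM in WT. Kit had 264, 183 and 204 CPM in Y541S and 439, 271 and 170 CPM in WT.

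Secreted innate defence proteins had the lowest median of the lists of more than 10 genes that had any call. Of 16 tested, 6 were lower and 0 higher, against 8.5% and 6.03% of all genes, with a median log2 difference of -1.62. Leaving out any 1 of the 6 libraries left 4 to 6 lower. Lcn2, the siderophore-binding lipocalin, had 369, 429 and 457 CPM in Y541S libraries, against 1810, 3690 and 3170 CPM in WT libraries (log2 -2.79 ± 0.50, adjusted p = 0.000258, edgeR). Sftpd, surfactant protein D, a lectin that binds microbes, had 15.6, 21.5 and 35.4 CPM in Y541S libraries, against 272, 345 and 399 CPM in WT libraries. Its log2 difference was -3.81 ± 0.53 (adjusted p = 1.4e-05, edgeR). The highest Y541S library for Sftpd was still far below the lowest WT library. Saa1 and Saa3, acute phase serum amyloid genes, averaged 0.997 ± 0.352 and 0.465 ± 0.342 CPM in Y541S, against 74.5 ± 31.2 and 68.6 ± 19.8 CPM in WT (SD, n = 3 each). The Saa3 call was lost without any 1 of the Y541S libraries (adjusted p of 0.0573 to 0.0813, edgeR). Slpi, a secreted protease inhibitor of the same list, was not called, with 308, 386 and 364 CPM in Y541S and 276, 117 and 140 CPM in WT.

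The largest falls lay in the glandular kallikreins, secreted serine proteases whose genes stand side by side on chromosome 7 (chr7:43690418-44229618, GRCm38). Klk1 (ENSMUSG00000063903) had 0.162, 0.413 and 0.597 CPM in Y541S libraries, against 514, 260 and 179 CPM in WT libraries, a log2 difference of -9.63 ± 1.61 (adjusted p = 0.000122, edgeR). Klk1b27 had 3 counts in all over the Y541S libraries and 12309 over the WT libraries. The WT to Y541S ratio was 4660, with a 95% exact interval of 1590 to 22600 that covers counting error only. Klk1b16 and Klk1b24 had 0 counts in every Y541S library and 1479 and 1023 counts over the WT libraries. Taking 3 counts over the group as the limit that a count of 0 allows, they were at least 560-fold and at least 387-fold lower in Y541S. DESeq2 did not call either, with adjusted p of 0.271 and 0.0556.

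Of 26 kallikrein genes, 16 were tested. Of the 11 tested genes of the Klk1 and Klk1b group, 7 were lower and 0 higher, against 8.5% lower among all genes. The filter on low counts keeps a gene that is high in 1 group alone. A gene kept only through WT E2+P4 could not be higher in Y541S, so the count is not a test of the group. The Klk1 and Klk1b genes are near copies of each other, and the counting step can split their reads. Of the stretches of 50 bases in the transcripts, 24% of those of Klk1, 29.1% of those of Klk1b21 and 33.9% of those of Klk1b24 also occur in another gene, against 0 in Sftpd. The value of any 1 Klk1b gene is therefore uncertain. A predicted gene, Gm10109, also overlaps 48.4% of the genomic span of Klk1. Within the cluster, 3 of the 5 other tested kallikreins were higher. Klk6, Klk7 and Klk8, named after their values were seen, averaged 16.8 ± 4.81, 6.84 ± 0.512 and 10.2 ± 1.26 CPM in Y541S, against 0.641 ± 0.306, 0.299 ± 0.134 and 0.941 ± 0.0796 CPM in WT (SD, n = 3 each). The Klk7 call was lost when any 1 of the 6 libraries was left out (adjusted p of 0.0675 to 0.136, edgeR).

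**Figure D3:**
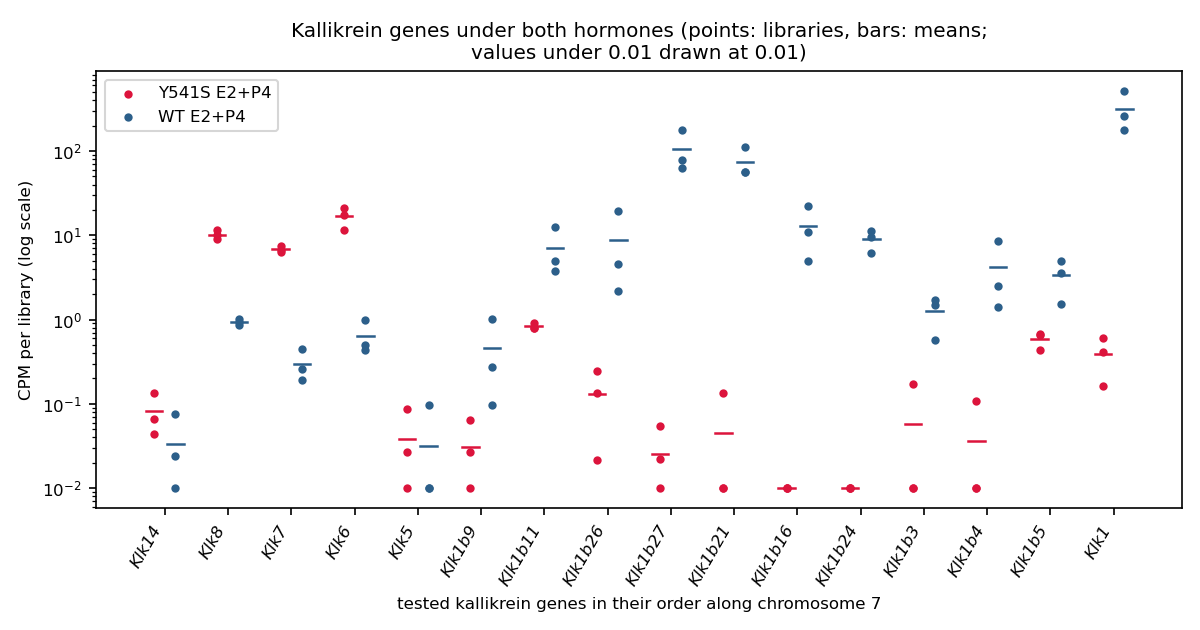
CPM on a log axis of the 16 tested kallikrein genes in their order along chromosome 7, in Y541S E2+P4 libraries (red, left) and WT E2+P4 libraries (blue), with bars at the means and values under 0.01 drawn at 0.01. Klk6, Klk7 and Klk8 are higher in Y541S, while Klk1b27, Klk1b21 and Klk1 reach 55.8 CPM or more in every WT library and stay under 1 CPM in Y541S.

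The start regions of the 3 of these genes with the highest CPM in WT are shown because the genes moved together and Y541S alters a receptor that binds DNA. Each runs from 250 bases before the start of the gene to 50 bases after it, on the plus strand of GRCm38.p6, from RefSeq. Capitals mark AGGTCA or its reverse complement, 1 arm of the estrogen response element.
Klk1 (chr7:44225110-44225409): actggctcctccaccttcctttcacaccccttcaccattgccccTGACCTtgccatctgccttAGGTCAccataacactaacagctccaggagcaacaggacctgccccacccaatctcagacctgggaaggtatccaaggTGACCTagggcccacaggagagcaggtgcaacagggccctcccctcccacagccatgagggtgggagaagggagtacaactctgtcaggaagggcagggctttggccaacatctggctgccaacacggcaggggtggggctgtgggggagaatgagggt
Klk1b27 (chr7:44052040-44052339): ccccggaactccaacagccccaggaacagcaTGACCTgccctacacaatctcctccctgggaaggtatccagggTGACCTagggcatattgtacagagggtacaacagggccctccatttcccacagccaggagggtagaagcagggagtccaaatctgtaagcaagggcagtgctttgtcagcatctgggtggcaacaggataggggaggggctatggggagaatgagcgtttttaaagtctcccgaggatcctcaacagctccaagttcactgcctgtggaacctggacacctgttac
Klk1b21 (chr7:44102042-44102341): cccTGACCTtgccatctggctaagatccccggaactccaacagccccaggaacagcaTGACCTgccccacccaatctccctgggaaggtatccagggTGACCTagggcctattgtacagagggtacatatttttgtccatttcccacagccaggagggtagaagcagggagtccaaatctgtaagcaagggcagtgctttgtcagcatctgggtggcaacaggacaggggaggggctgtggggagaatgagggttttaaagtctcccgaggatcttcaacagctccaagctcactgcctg

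Klk1 and Klk1b21 hold 3 such arms each and Klk1b27 holds 2. In end-to-end alignments, the Klk1b27 and Klk1b21 windows matched at 86.3% of their 300 bases. Klk1 matched Klk1b27 at 52% and Klk1b21 at 69%. The 3 windows cover shifted parts of a sequence that the copies share, so these shares are not percentages of aligned bases. The matches in the 3 genes are therefore not independent. None of the 3 windows holds the full element, which is the arm without its first base followed, after any 3 bases, by its own reverse complement, searched on both strands and overlapping the single arm, and 0.0666% of 27025 promoters of the same length hold it. The single arm AGGTCA occurs in 16% of those promoters, in 13.3% of the promoters of genes called higher and in 12.3% of those of genes called lower, against 12.8% of the promoters of all tested genes. Greb1 holds 1. A match describes the letters and does not show a bound site.

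Other large falls were in genes outside this cluster. Acsl6, a long-chain fatty acid activating enzyme, had 0.027, 0.369 and 0.332 CPM in Y541S libraries, against 154, 65.5 and 158 CPM in WT libraries (log2 -8.97 ± 1.61, adjusted p = 0.000285, edgeR). Muc13, a membrane mucin, had 2.7, 5.28 and 7.52 CPM in Y541S, against 221, 1000 and 1050 CPM in WT (log2 -7.19 ± 1.06, adjusted p = 2.44e-05, edgeR). In both genes the groups were far apart and the WT libraries differed by more than 2-fold among themselves. Fga, the fibrinogen alpha chain gene, had 0 counts in every Y541S library and 864 over the WT libraries, at least 327-fold lower with the same limit. Apof, an apolipoprotein, Lrrn2 and Plekhg4 completed the 12 largest falls, and each stayed under 1 CPM in every Y541S library.

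The 12 largest rises included genes near silence in WT. Calcb, which encodes the beta form of calcitonin gene-related peptide (ENSMUSG00000030666, chr7:114718643-114723365, plus strand), had 31.8, 71.5 and 59.9 CPM in Y541S libraries, against 0.336, 0.032 and 0.025 CPM in WT libraries. Its log2 difference was 8.58 ± 1.34 (adjusted p = 5.02e-05, edgeR), and 10.77 without WT library 1. Isl1, a LIM homeobox transcription factor known from motor neurons and pancreatic islets, had 8.33, 11.9 and 10.2 CPM in Y541S, against 0.024, 0.064 and 0.0499 CPM in WT (log2 7.73, adjusted p = 1.13e-06, edgeR). Both were clearly present in all 3 Y541S libraries and at a few counts in WT.

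Clca1, a secreted regulator of chloride channels, averaged 77.6 ± 13 CPM in Y541S and 0.242 ± 0.269 CPM in WT (log2 8.28, adjusted p = 2.22e-06, edgeR), and the difference was 9.82 without WT library 3. Spock1, an extracellular proteoglycan, averaged 32 ± 9.1 CPM in Y541S and 0.276 ± 0.135 CPM in WT. Krt15, a keratin of stratified and glandular epithelia, reached the highest level of the 12 in CPM, which are not corrected for gene length, at 913, 1550 and 1060 CPM in Y541S libraries, against 17.5, 16.7 and 14.2 CPM in WT libraries (log2 6.19 ± 1.15, adjusted p = 0.000425, edgeR). Galnt9, Wfdc13, Slc14a1, Atp2b4, Pla2g4c, Ppic and Cxcl5 made up the rest, with log2 differences between 5.13 and 6.44. The Ppic call was lost without WT library 3 (adjusted p = 0.0545, edgeR).

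Chemokines of the CXC family moved both ways. Of 10 tested, 3 were higher and 1 was lower, against 6.03% and 8.5% of all genes. Cxcl5, a neutrophil attractant, had 31.5, 47.8 and 86 CPM in Y541S libraries, against 1.61, 1.57 and 1.55 CPM in WT libraries (log2 5.13 ± 0.97, adjusted p = 0.000491, edgeR). Cxcl3 and Cxcl9 were higher at lower levels, 2 ± 0.404 and 14.3 ± 5.2 CPM in Y541S, against 0.0906 ± 0.101 and 3.01 ± 2.26 CPM in WT. Cxcl16 was lower, at 56.8 ± 2.74 CPM in Y541S and 132 ± 8.23 CPM in WT (SD, n = 3 each). Without WT library 2 the higher members numbered 1, and without WT library 3 or without Y541S library 3 they numbered 2. The Cxcl9 call was lost in each of these fits, and the Cxcl3 call without WT library 2 (adjusted p = 0.0512, edgeR).

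Cell cycle genes had positive medians and few calls. Among all genes 6.03% were higher and 8.5% lower. Of 23 S phase genes, 3 were higher, Mcm2 and Mcm4 among them, and 0 lower, with a median log2 difference of 1.18. Of 26 genes of the G2 and M phases, 2 were higher (Bub1b and Anln) and 0 lower, with a median of 1.44. The summed level of the G2 and M genes was 1658, 1455 and 1695 CPM in Y541S libraries, against 1093, 245.4 and 391.1 CPM in WT libraries. The Y541S libraries lay close together, and WT library 1 lay nearer to them than to the other WT libraries. The number of calls followed the WT libraries used. Without WT library 1 there were 15 higher S phase genes and 3 higher G2 and M genes, and without WT library 2 or without WT library 3 there were 0 of either. Without single Y541S libraries there were 1 to 2 of the S phase genes and 0 to 1 of the G2 and M genes. At an unadjusted p under 0.05, 14 S phase genes and 4 G2 and M genes were higher, against 28.1% of all genes in either direction. Mki67, a marker of dividing cells, had 50.4, 43.3 and 57.3 CPM in Y541S, against 42.6, 4.51 and 17.6 CPM in WT, and was not called (adjusted p = 0.499, edgeR).

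Regulators of the G1 phase gave firmer calls. Cdkn2b, which encodes the CDK inhibitor p15, had 36.1, 28.5 and 35.2 CPM in Y541S, against 5.76, 4.48 and 5.09 CPM in WT (log2 2.70 ± 0.33, adjusted p = 2.34e-06, edgeR). Cdk4, the G1 kinase that Cdkn2b's product inhibits, had 736, 716 and 714 CPM in Y541S, against 416, 223 and 299 CPM in WT (log2 1.21 ± 0.20, adjusted p = 0.000106, edgeR). Both were separated from WT in every library, in the same direction. Cdkn1c and Cdkn2a, also CDK inhibitor genes, were higher, and Rb1, the retinoblastoma gene, was lower, at 7.67 ± 0.624 CPM in Y541S and 20.2 ± 5.19 CPM in WT (SD, n = 3 each). These were the 4 higher and 1 lower of 16 tested, against 6.03% and 8.5% of all genes. Annotated neighbours overlap 32.9% of the genomic span of Cdkn1c and 20.8% of that of Rb1. Cdkn2a stayed under 2 CPM in every library, and its call was lost without WT library 3 (adjusted p = 0.0537, edgeR). Myc and Ccnd1 were not called, with log2 differences of 0.58 ± 0.30 and 0.17 ± 0.29.

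Genes of the unfolded protein response, which fits folding capacity in the endoplasmic reticulum to secretory load, had 10 lower and 0 higher members of 23, with a median of -0.49. Among all genes 8.5% were lower and 6.03% higher. Of 2247 genes with a mean of 100 to 1000 CPM, 473 were lower and 199 higher. The members' mean log2 CPM was 7.32 to 7.63 in Y541S libraries and 7.72 to 8.27 in WT libraries. The part of level in the count was not tested. Ern1, the stress sensor that splices Xbp1 mRNA, had 26.4, 33.3 and 40 CPM in Y541S, against 93.9, 117 and 185 CPM in WT (log2 -1.99 ± 0.26, adjusted p = 5.43e-06, edgeR). Edem1, which sends misfolded glycoproteins to degradation, averaged 216 ± 32.5 CPM in Y541S and 579 ± 178 CPM in WT. Dnajc3, Dnajb9, Sdf2l1 and Herpud1 were lower by 1.08 to 1.62 on the log2 scale. Leaving out any 1 of the 6 libraries left 6 to 10 lower members, with the fewest without WT library 3.

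Of 21 immediate early genes, 8 were lower and 0 higher, against 8.5% and 6.03% of all genes, with a median of -0.68. At a mean of 100 to 1000 CPM, 473 of 2247 genes were lower, and the part of level in the count was not tested. Fos, the transcription factor gene that cell stimulation induces within minutes, had 375, 261 and 464 CPM in Y541S, against 1010, 2120 and 1890 CPM in WT (log2 -2.19 ± 0.46, adjusted p = 0.00129, edgeR). Fosb averaged 23 ± 5.33 CPM in Y541S and 210 ± 79.3 CPM in WT, and Atf3 averaged 414 ± 121 CPM in Y541S and 1600 ± 784 CPM in WT (SD, n = 3 each). Without WT library 3 the lower members numbered 4, and without Y541S library 2 or 3 they numbered 5.

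Type I interferon response genes had 4 higher and 1 lower members of 25, against 6.03% and 8.5% of all genes, with a median of 0.40. Oas1a, an antiviral enzyme, averaged 20.2 ± 1.35 CPM in Y541S and 5.27 ± 1.84 CPM in WT, and Oasl2 averaged 49.4 ± 4.23 CPM in Y541S and 19.4 ± 6.27 CPM in WT. Bst2, the tetherin gene, went the other way, at 158 ± 4.9 CPM in Y541S and 423 ± 80.5 CPM in WT (SD, n = 3 each). Without WT library 2, without WT library 3 or without Y541S library 3, the higher members numbered 2. Of 7 genes of MHC class II presentation, H2-DMa and H2-DMb1, which help load peptides, were lower and 0 were higher, and their summed level was 82.3 to 96.98 CPM in Y541S and 136.1 to 281.8 CPM in WT. WT library 2 was the highest of these, as it was for leukocyte markers. The H2-DMb1 call was lost without WT library 2 (adjusted p = 0.0846, edgeR), without WT library 3 and without Y541S library 1 or 3.

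In glucose handling, 2 of 18 genes were higher and 2 lower, against 6.03% and 8.5% of all genes. Slc2a3, which encodes the high-affinity glucose transporter GLUT3, had 754, 757 and 1020 CPM in Y541S libraries, against 130, 14.6 and 42.6 CPM in WT libraries (log2 3.75 ± 0.86, adjusted p = 0.00317, edgeR), and the difference was 4.88 without WT library 1. Slc16a3, a lactate exporter gene, was lower, at 4.95 ± 0.829 CPM in Y541S and 27.3 ± 9.21 CPM in WT (SD, n = 3 each). Leaving out any 1 of the 6 libraries left 1 higher member. Hk1, a hexokinase, was lower by 0.77 on the log2 scale, and its call was lost without WT library 3 (adjusted p = 0.054, edgeR). Of 21 cholesterol synthesis genes, Hmgcs1 was higher and Ebp was lower, with the Ebp call lost without WT library 3 or without Y541S library 1 or 2 (adjusted p of 0.0671 to 0.18, edgeR). The Hmgcs1 call was lost under DESeq2's size factors, under no filter and when any of 5 single libraries was left out. Of 5 uroplakins, Upk2 was lower and 0 were higher, with a median log2 difference of 1.64. DESeq2 and the fit of the compared groups alone each called 2 uroplakins higher and 1 lower, with Upk3a at adjusted p of 0.0247 and 0.00939. Upk3a had 7.04, 5.56 and 3.1 CPM in Y541S libraries, against 0.793, 0.864 and 0.499 CPM in WT libraries. Among 12 membrane mucins and keratins Muc13 and Krt18 were lower. The Krt18 call was lost when any 1 library other than WT library 1 was left out (adjusted p of 0.0733 to 0.418, edgeR), with only the compared groups in the fit and with no filter. The 4 tested placental-type cathepsins summed to under 1 CPM in every library, and 0 were called by edgeR or DESeq2, or at an unadjusted p under 0.05.

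**Figure D4:**
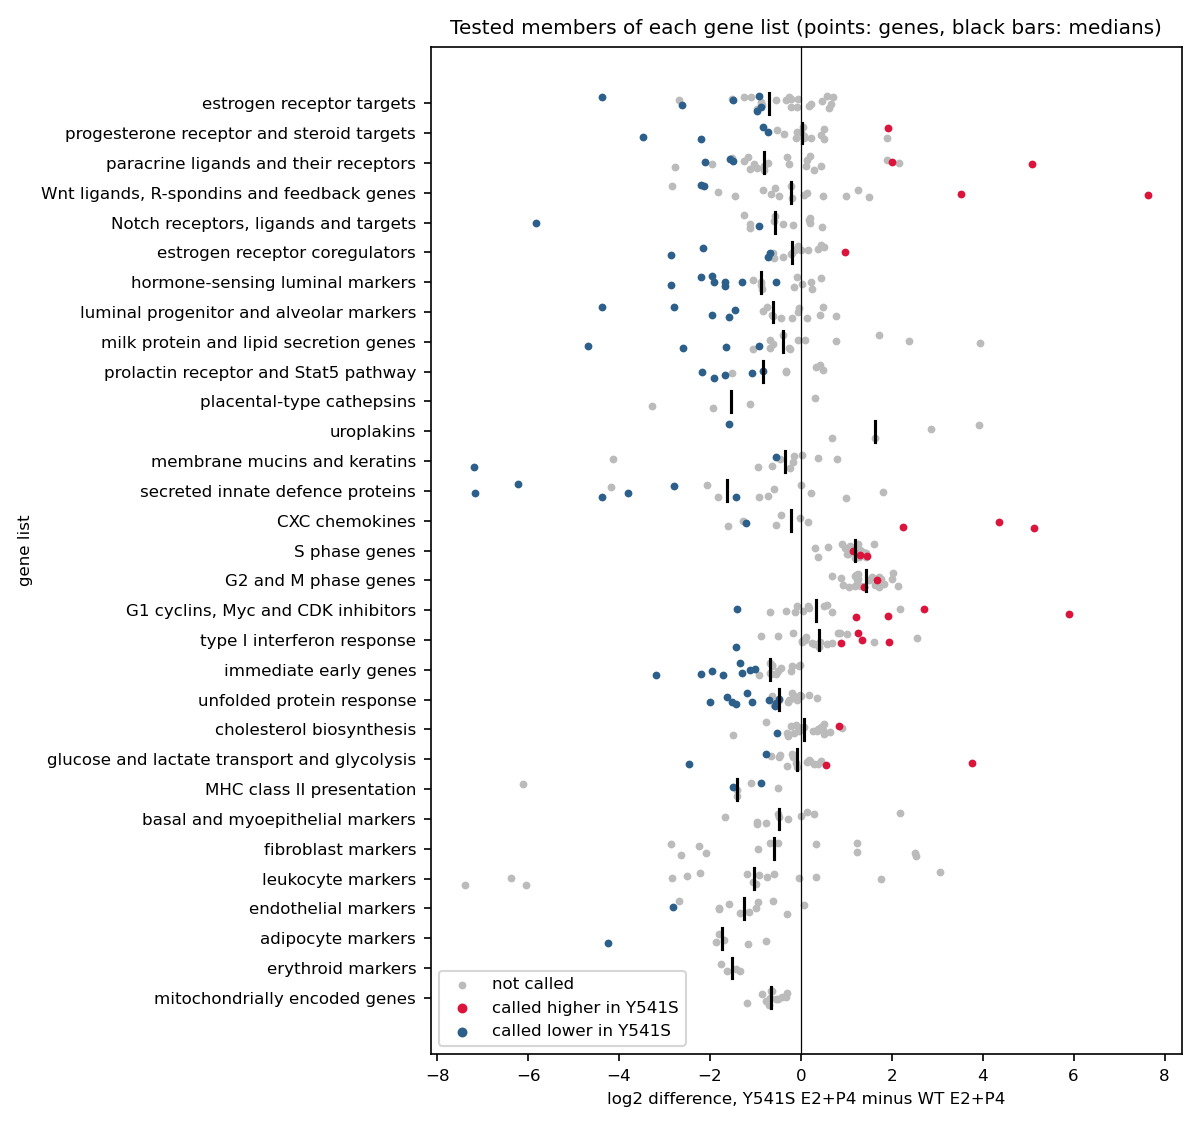
Log2 differences, Y541S E2+P4 minus WT E2+P4, of the tested members of the 31 gene lists, with called genes in red (higher) or blue (lower), other genes in grey and black bars at the medians. The medians of the S phase and G2 and M phase lists lie at 1.18 and 1.44, and that of the innate defence list lies at -1.62.

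By edgeR, markers of other cell types were not called, apart from 1 gene in each of 2 lists. Of 16 leukocyte, 12 fibroblast, 11 basal and 4 globin genes tested, 0 were higher and 0 lower by edgeR, against 6.03% and 8.5% of all genes. At an unadjusted p under 0.05, 4 leukocyte markers and 1 basal marker were lower, and 2 fibroblast markers were higher and 1 lower. DESeq2 called 1 leukocyte and 1 basal marker lower and 1 fibroblast marker higher. Of 12 endothelial markers, Vwf, the von Willebrand factor gene, was lower, at 50, 59.4 and 49.9 CPM in Y541S, against 289, 388 and 443 CPM in WT. Cdh5, a defining endothelial gene, was at 0.243 to 0.413 CPM in Y541S and 0.648 to 4.42 CPM in WT, and Pecam1 was at 1.88 to 6.67 CPM in Y541S and 4.76 to 36.3 CPM in WT, both highest in WT library 2. The call of Vwf was kept without that library. At an unadjusted p under 0.05, and by DESeq2, 4 endothelial markers were lower, as they were by edgeR without WT library 1. The median of the endothelial list was -1.24, and -0.01 without WT library 2. Of 6 adipocyte markers Cidec was lower, and both groups were under 3 CPM. The Cidec call was lost without Y541S library 2 or 3 (adjusted p of 0.0643 and 0.0634, edgeR). Dcn, a fibroblast marker, had 183, 440 and 531 CPM in Y541S and 71.9, 89.4 and 41.4 CPM in WT without a call, whereas Col1a1 stayed at 3 CPM or less in every Y541S library and reached 20.4 CPM in WT library 2.

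The next question was whether the effect of the mutation under both hormones differed from its effect without hormone. This was tested as an interaction, Y541S minus WT under E2+P4 less Y541S minus WT under placebo, which shares the 6 libraries with the comparison above. It called 552 genes higher (3%) and 1047 lower (5.68%), 8.68% in all. Greb1 averaged 31.1 ± 4.52 CPM in Y541S E2+P4 and 192 ± 64.5 CPM in WT E2+P4, beside 29.1 ± 14.2 CPM in Y541S placebo and 1.38 ± 0.73 CPM in WT placebo. Under placebo Y541S thus had the higher mean, and under both hormones WT had, with an interaction of -7.01 (adjusted p = 6.02e-07, edgeR). Sftpd showed the same layout, with 24.2 ± 10.2 CPM in Y541S E2+P4 and 339 ± 63.7 CPM in WT E2+P4, beside 9.94 ± 3.84 CPM in Y541S placebo and 0.145 ± 0.117 CPM in WT placebo (interaction -9.90, adjusted p = 2.59e-08, edgeR).

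Slc2a3 and Penk were higher in Y541S under both hormones and, by a larger fold, under placebo, where WT levels were very low. Slc2a3 averaged 842 ± 151 CPM in Y541S E2+P4 and 62.4 ± 60.2 CPM in WT E2+P4, beside 750 ± 190 CPM in Y541S placebo and 0.793 ± 0.844 CPM in WT placebo (interaction -6.11, adjusted p = 0.00177, edgeR). Penk averaged 702 ± 264 CPM in Y541S E2+P4 and 20.6 ± 13.3 CPM in WT E2+P4, beside 869 ± 380 CPM in Y541S placebo and 0.614 ± 0.16 CPM in WT placebo (interaction -5.38, adjusted p = 0.013, edgeR). Muc13 differed from these, with 5.17 ± 2.41 CPM in Y541S E2+P4 and 756 ± 464 CPM in WT E2+P4, beside 40.1 ± 36.5 CPM in Y541S placebo and 39.1 ± 15.2 CPM in WT placebo (interaction -7.23).

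For Calcb, Isl1 and Krt15 the interaction was not called. Krt15 averaged 1180 ± 336 CPM in Y541S E2+P4 and 16.1 ± 1.73 CPM in WT E2+P4, beside 2380 ± 1060 CPM in Y541S placebo and 46.1 ± 71.5 CPM in WT placebo, an interaction of 0.50 ± 1.30 (adjusted p = 0.883, edgeR). Klk1 was under 1 CPM in every library of Y541S and WT mice outside WT E2+P4, except 1 Y541S P4 library, and its interaction did not pass the test (adjusted p = 0.106, edgeR). Spock1 was at 32 ± 9.1 CPM in Y541S E2+P4 and at 1.73 ± 2.08 CPM in Y541S placebo (interaction adjusted p = 0.0823, edgeR). Of the lists, type I interferon genes had 13 of 25 and unfolded protein response genes 9 of 23 called lower in the interaction, against 5.68% of all genes, and 0 called higher. Leukocyte, MHC class II and fibroblast genes had interaction medians of -5.35, -4.39 and -3.63. Y541S placebo library 5 stood apart from its group. It differed from libraries 2 and 3 by a chi-square per degree of freedom of 313.3 and 299.7, against 70.8 between those. Without it the interaction called 461 genes higher and 974 lower. The part of that library in the list calls was not tested.

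**Figure D5:**
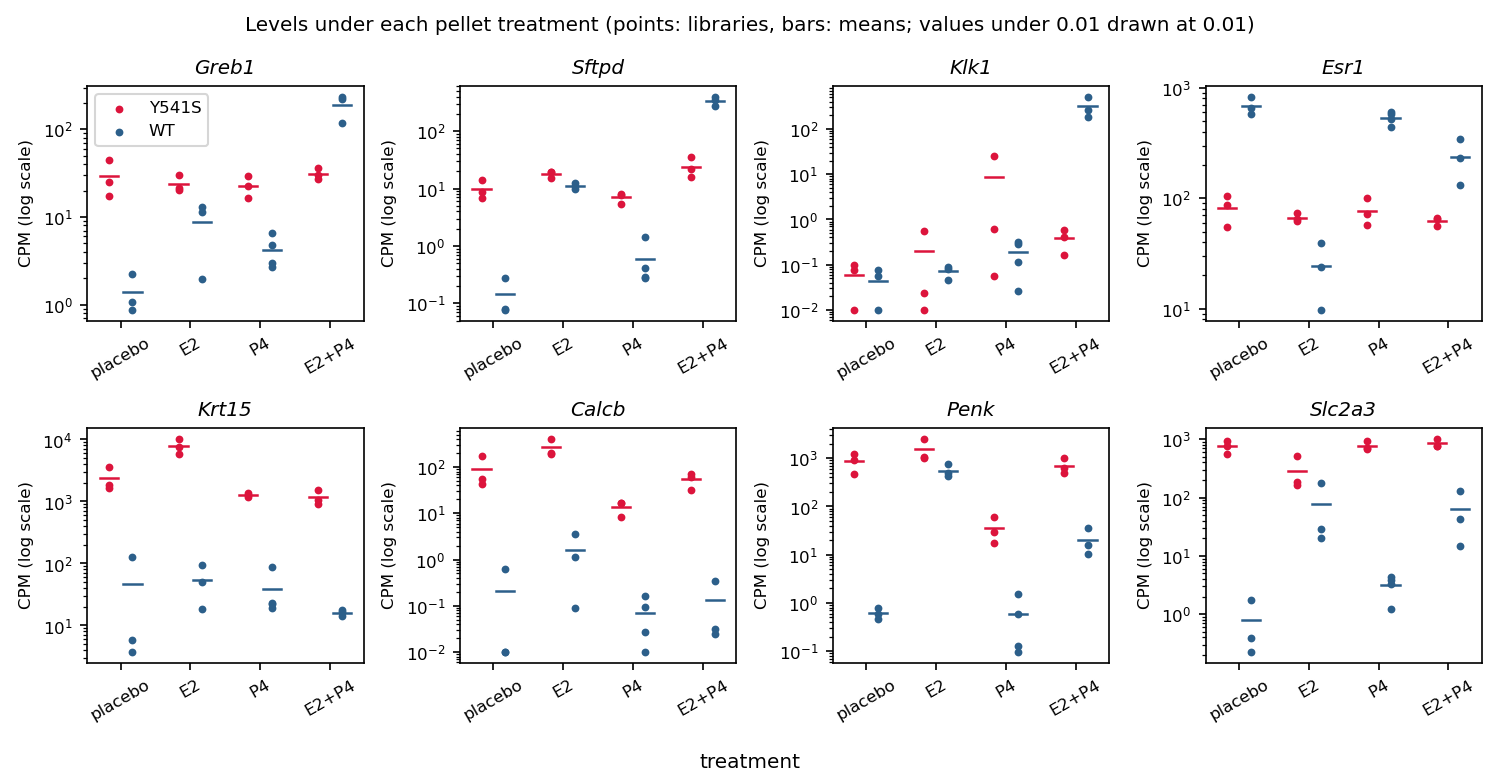
CPM on log axes of 8 genes in Y541S libraries (red, left) and WT libraries (blue) under each pellet, from placebo to E2+P4, with bars at the means and values under 0.01 drawn at 0.01. Greb1, Sftpd and Klk1 reach their highest level in WT E2+P4, at 192, 339 and 318 CPM, while the means of Krt15 and Calcb are higher in Y541S under every treatment.

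Against estradiol alone the same form of contrast called 616 genes higher (3.34%) and 1056 lower (5.73%), 9.07% in all. Esr1 averaged 62.8 ± 5.63 CPM in Y541S E2+P4 and 236 ± 106 CPM in WT E2+P4, beside 66.7 ± 5.71 CPM in Y541S E2 and 24.3 ± 14.8 CPM in WT E2. The interaction was -3.37 (adjusted p = 5.93e-05, edgeR), and the direction of the difference between the genotypes was opposite under the 2 treatments. Esr1 kept a narrow range of means in Y541S cells over the 4 treatments, 62.8 to 82.1 CPM, and a wide one in WT cells, 24.3 to 688 CPM. Cited1 averaged 44.5 ± 9.02 CPM in Y541S E2+P4 and 320 ± 119 CPM in WT E2+P4, beside 280 ± 106 CPM in Y541S E2 and 35 ± 20.5 CPM in WT E2 (interaction -5.85, adjusted p = 6.68e-06, edgeR).

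Pgr, which did not differ by the test under both hormones, did so in this contrast (interaction -2.34, adjusted p = 0.00456, edgeR), with 128 ± 17.8 CPM in Y541S E2+P4 and 236 ± 88.3 CPM in WT E2+P4, beside 184 ± 25.7 CPM in Y541S E2 and 67 ± 23.8 CPM in WT E2. Hormone-sensing luminal markers had 11 of 18 called lower in this contrast and 0 called higher, against 5.73% lower among all genes. Tnfsf11 was positive (interaction 4.58, adjusted p = 0.0448, edgeR), with 206 ± 7.95 CPM in Y541S E2+P4 and 55.5 ± 55.2 CPM in WT E2+P4, beside 1.25 ± 0.673 CPM in Y541S E2 and 7.92 ± 13.4 CPM in WT E2.

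The 2 mutants were compared under both hormones. Y541S E2+P4 had 549 genes higher (2.98%) and 706 lower (3.83%) than D542G E2+P4, 6.81% in all. Calcb, Isl1 and Defb3, a beta-defensin gene, had the largest differences. Calcb averaged 54.4 ± 20.4 CPM in Y541S and 0.176 ± 0.23 CPM in D542G, which lay at the WT level of 0.131 ± 0.178 CPM (Y541S minus D542G 8.31, adjusted p = 0.000169, edgeR). Isl1 averaged 10.2 ± 1.81 CPM in Y541S and 0.0376 ± 0.0137 CPM in D542G (7.97, adjusted p = 4.73e-06, edgeR). In both genes the D542G libraries did not reach the Y541S libraries.

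Krt15 averaged 1180 ± 336 CPM in Y541S and 62.5 ± 54.2 CPM in D542G (4.23, adjusted p = 0.012, edgeR). Sftpd averaged 24.2 ± 10.2 CPM in Y541S and 149 ± 66.9 CPM in D542G (-2.63, adjusted p = 0.00142, edgeR), and Klk1 averaged 0.391 ± 0.219 CPM in Y541S and 17.2 ± 13.8 CPM in D542G (-5.42, adjusted p = 0.0149, edgeR). For both of these the D542G mean lay between those of Y541S and WT. Lgr4 and Cdkn2b also differed, by -1.73 and 2.94. Of immediate early genes 10 of 21 were lower in Y541S than in D542G and 0 higher, against 3.83% lower among all genes. Several genes that separated Y541S from WT did not separate the mutants by this test. Greb1 averaged 31.1 ± 4.52 CPM in Y541S and 67.3 ± 15.3 CPM in D542G (-1.11, adjusted p = 0.184, edgeR), and Slc2a3 averaged 842 ± 151 CPM in Y541S and 487 ± 215 CPM in D542G (0.79, adjusted p = 0.617, edgeR). A p that misses the threshold does not show that the mutants are alike in these genes.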

How the data were processed

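Whole-number read counts per gene, with RPKM values beside them, were deposited by the authors for each of the 37 libraries, on GRCm38 per the submitters' processing notes. The aligner, counter, strand setting and annotation are not given in the sources used here. Libraries were made with Nextera XT from RNA of sorted cells, per the labels' protocols. The RPKM values deposited by the authors were not used. Counts were tested with edgeR 4.0.16 (limma 3.58.1, R 4.3.3): filterByExpr by group, TMM scaling, robust quasi-likelihood fit of all 37 libraries with 1 term per group, 4 comparisons. DESeq2 1.42.0 was an alternative, beside other scaling, no filter, only the compared groups, a replicate block and single libraries left out. On simulated data for Y541S E2+P4 against WT E2+P4 with 17990 genes, the test recovered 49% of 100 changes of 2-fold and 93% of 100 changes of 4-fold, with 7 false calls. The changed genes were drawn from those with a mean above 4 CPM, and all other genes had the same mean in every group. The simulation had far fewer changed genes than were called here and no outlying library, so its rates may not hold for these data.

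The text names the 12 largest rises and 12 largest falls among called genes with a mean of at least 4 CPM and no overlap of libraries, a panel of 24 genes, up to 3 called members of each of 31 lists by p, and the 3 largest differences of each other comparison; 30 further genes were chosen after their values were seen. A few of these genes are not reported here. The members and lists were chosen with earlier results of these data known. Gene positions and names come from the GENCODE annotation of GRCm38, which held 52489 of 52636 gene identifiers. Overlaps count any gene of the tables on either strand. Y541S and WT libraries with the same number did not deviate together (Pearson r of 0.1, 0.08 and 0.02), so the numbers were not taken as pairs. Within each group, every pair of libraries differed by more than counting error, so none was treated as a repeat of another.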

Additional observations from a re-analysis of the deposited data

Results flagged for a closer look

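For the genes below, the effect of the mutation under both hormones differed from its effect under placebo. The values are log2 interactions, Y541S minus WT under E2+P4 less Y541S minus WT under placebo, each with an adjusted p under 0.05 over all tested genes (edgeR), against 3% of all genes called higher and 5.68% called lower in that contrast. They share the 6 libraries of the main comparison and are not independent of it. Y541S placebo library 5, which stood apart from its group, enters each of them.

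Interactions above 0 were found for Clca1 (5.65), Pla2g4c (3.84), Upk3a (6.3), Mcm4 (1.55), Cdk4 (1.0) and Tmsb4x (1.74). Interactions below 0 were found for these genes with a positive difference under both hormones: Penk (-5.38), Slpi (-6.85), Slc2a3 (-6.11), Defb3 (-6.88), Klk8 (-2.83) and Plk2 (-1.08).

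Genes with a negative difference under both hormones and an interaction below 0 included Apof (-3.93), Muc13 (-7.23), Greb1 (-7.01), Elf5 (-2.11), Ctsj (-9.35), Sftpd (-9.9), Stc2 (-1.5), Ramp1 (-1.92), Lgr4 (-2.76) and Hey2 (-7.93). To the same set belonged Lcn2 (-2.63), Folr1 (-1.99), Csn1s2b (-9.12), Cxcl16 (-1.59), Bst2 (-3.72), Ern1 (-3.16), Edem1 (-2.33), Slc16a3 (-7.64), H2-DMa (-1.64) and Vwf (-2.49). A further group of this kind comprised Cidec (-6.06), Cd33 (-11.93), Sprr2a3 (-10.42), Wfdc2 (-2.08), Hbegf (-2.05), Stat5a (-1.22), Prom2 (-4.24), Tcn2 (-3.08), Ctsb (-1.65) and Lamp1 (-0.81). The remaining genes of this kind were Lamp2 (-1.37), Ctsd (-1.16), Fth1 (-2.69), H2-K1 (-1.35), H2-D1 (-1.63), Dnajb9 (-2.69) and Sdf2l1 (-1.29).

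Elf5, Ctsj, Slpi, Upk3a, Cd33 and Sprr2a3 were not called in Y541S E2+P4 against WT E2+P4 itself, and the other genes above were. The differences of Elf5 (-0.20 ± 0.44), Ctsj (-1.12 ± 2.26) and Sprr2a3 (-0.35) under both hormones do not settle a direction. Ctsj had 5 counts in all over the Y541S E2+P4 libraries and 10 over the WT E2+P4 libraries.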

How the results depend on the processing

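Over 130 named genes and up to 12 alternatives each (11 for Ctsj), 1414 of the values kept their direction and their side of the threshold, 127 lost the call, 12 gained it and 6 changed sign. The sign changes were in genes without a call, and leaving out single libraries gave log2 differences of -0.49 to 0.56 for Elf5, -0.05 to 2.59 for Calca, -0.07 to 0.62 for Ccnd1 and -0.76 to 0.08 for Sprr2a3. Leaving out single libraries gave 468 to 1445 higher and 1019 to 1782 lower genes for Y541S against WT under both hormones, 326 to 731 and 706 to 1157 for the interaction with placebo, 297 to 949 and 625 to 1315 for the interaction with E2, and 207 to 422 and 298 to 613 for Y541S against D542G. Fitting only the compared groups gave 304 higher and 629 lower genes in the interaction with placebo and 233 and 625 in that with E2, from fewer libraries. DESeq2 called 938 genes higher in the interaction with E2, and 859 higher and 1077 lower for Y541S against D542G. The cause of these shifts was not tested. The replicate block gave 1217 higher and 1640 lower genes in the main comparison, and it moved no count of calls by over 1.5 times. Depth limits genes under 1 CPM, of which 3.12% were called.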

Other observations

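Abundant genes were called more often than rare ones, and mostly lower. Of 99 genes with a mean of 1000 CPM or more over the 6 libraries, 4 were higher and 43 lower in Y541S E2+P4 than in WT E2+P4, which is 47.5% of them. Of 5643 genes with a mean under 1 CPM, 89 were higher and 87 lower, 3.12%. The genes named here were chosen after their values were seen. Prom2, a membrane glycoprotein of epithelial protrusions, had 239, 233 and 297 CPM in Y541S, against 3190, 5670 and 7310 CPM in WT (log2 -4.39 ± 0.38, adjusted p = 1.88e-08, edgeR). Tcn2, which carries vitamin B12, and Slc12a2, a sodium-potassium-chloride cotransporter, were lower by 2.69 and 2.48 on the log2 scale. Cldn4, a tight junction protein gene, was lower by 2.40, and its call was lost without WT library 2 (adjusted p = 0.0556, edgeR).

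Further genes of this level, also chosen after their values were seen and not standing for any pathway as a whole, are given as values. The lysosomal membrane genes Lamp1 and Lamp2 averaged 837 ± 57.5 and 656 ± 22.7 CPM in Y541S, against 1500 ± 302 and 1490 ± 404 CPM in WT (SD, n = 3 each). The lysosomal proteases Ctsb and Ctsd averaged 1220 ± 54.7 and 824 ± 119 CPM in Y541S, against 3830 ± 1110 and 1610 ± 399 CPM in WT, and other genes overlap 55.7% of the genomic span of Ctsd and 20.5% of that of Lamp1. Fth1, the ferritin heavy chain gene, had 1170, 1210 and 1160 CPM in Y541S, against 3830, 7200 and 8200 CPM in WT (log2 -2.44, adjusted p = 1.6e-08, edgeR). H2-K1 and H2-D1, classical MHC class I genes that share sequence, were lower by 1.69 and 1.75 on the log2 scale. Of the 4 higher abundant genes, Plk2, a stress-responsive kinase gene, averaged 1960 ± 236 CPM in Y541S and 663 ± 45.9 CPM in WT. Tmsb4x, an actin-binding peptide gene, was higher by 0.81, and its call was lost when WT library 2 was left out (adjusted p = 0.14, edgeR) and when any 1 of the other libraries except WT library 1 was.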
